A study of Mus musculus with 8 samples.

Results

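The IL-6 and IL-12 families are related groups of cytokines with shared subunits and receptors. Their genes were followed in primary murine microglia, the resident macrophages of the brain, by sequencing of RNA from cells kept for 24 h with 5 µg/ml lipopolysaccharide (LPS), a bacterial cell wall component, or with vehicle. The 10 genes were chosen by name from these families and found by Ensembl identifier in a table of read counts for 52636 genes. They are the ligands Il6, Lif and Osm, the subunits Il12a, Il12b, Il23a, Il27 and Ebi3, and the receptors Il6ra and Il6st. Each group held 4 libraries that the labels call biological replicates, all from wild-type C57BL/6 mice by the labels, and from C57BL/6N pups by the study's methods. In both groups the cells were harvested by shake-off from mixed glial cultures of neonatal brain and kept in medium with 10% fetal bovine serum and 10 ng/ml CSF-1, so the vehicle cells were cultured cells in a growth factor and not microglia of the intact brain.

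IL-6 binds its receptor IL-6Rα, encoded by Il6ra, and the pair then engages gp130, encoded by Il6st, the signalling chain that IL-6, LIF and oncostatin M (Osm) have in common. gp130 activates JAK kinases and the transcription factor STAT3. The IL-12 family proteins are heterodimers. The p40 chain (Il12b) joins p35 (Il12a) in IL-12 or p19 (Il23a) in IL-23, and EBI3 joins p28 (Il27) in IL-27 or p35 in IL-35. Macrophages and microglia are known sources of IL-6 and of IL-12 family cytokines after contact with bacterial products.

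Many cytokine mRNAs are short-lived, and the sequences shown first hold an AU-rich motif, TATTTAT. All ligand and subunit genes but Ebi3 held this motif in the 3′ UTR searched, and the receptor genes did not. Other forms of AU-rich element were not searched. The motif TATTTAT, an AU-rich element bound by factors that control mRNA decay, was counted in the longest annotated 3′ UTR of each gene (GENCODE vM21, GRCm38). It occurred 5 times each in Il12a, Il23a and Lif, 4 times in Il27, 3 times in Osm and 1 time each in Il6 and Il12b. It did not occur in Ebi3, nor in the 3′ UTRs of Il6ra (7102 bases) and Il6st (5641 bases). Of 21173 genes with a 3′ UTR, 27.4% held at least 1 copy, 1.76% held at least 4 and 0.85% held at least 5. The 30 bases with the most copies are shown for 5 of the ligand genes, 5′ to 3′ on the strand of the gene, with each TATTTAT in capitals. They lie at chr3:68698435-68698464 (plus strand) for Il12a, chr7:126589089-126589118 (minus) for Il27, chr11:4240940-4240969 (plus) for Osm, chr11:4270474-4270503 (plus) for Lif and chr5:30019716-30019745 (plus) for Il6.
Il12a: ccTATTTATATTTATTTATtttcTATTTAT
Il27: cagaTATTTATttcttggaTATTTATTTAT
Osm: atccgttttaTATTTATaaggccTATTTAT
Lif: gctgtcTATTTATtactatgtccTATTTAT
Il6: actttaagttaatttatgattgaTATTTAT

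Promoter windows from RefSeq (GRCm38.p6, 250 bases before to 50 after the start site) were matched for 7 of the 10 genes, Il6, Il12a, Il12b, Ebi3, Lif, Il6ra and Il6st. They were searched on both strands for the 10-letter κB motif of NF-κB, the ISRE core (GAAA, any 2 bases, GAAA), the C/EBP motif TTNNGNAA, the AP-1 motif TGANTCA, the GAS motif TTCNNNGAA of STAT factors and TATAAA. A κB match was present in the windows of Il6, Ebi3 and Lif, against 8.46% of 32851 promoter windows of the table. In both Il6 and Ebi3 it spanned positions −44 to −35 from the RefSeq start site, and Ebi3 had a further match from 15 to 24 bases after that site. An AP-1 match was present in Il6 and Lif (7.81% of all windows), and a C/EBP match in Il6 and Il6ra (40.7% of all windows). The ISRE core (3.44%), the GAS motif (8.3%) and TATAAA (13.6%) were not found in these 7 windows, which says only that those letters are not there. The 150 bases before the start site are shown for Il6 (chr5:30012964-30013113), Ebi3 (chr17:55952473-55952622) and Il12b (chr11:44399913-44400062), all on the plus strand, with matches in capitals. The matches in Il6 are the C/EBP motif and then κB, and the match in Ebi3 is κB. Il12b had no match to the letters searched.
Il6: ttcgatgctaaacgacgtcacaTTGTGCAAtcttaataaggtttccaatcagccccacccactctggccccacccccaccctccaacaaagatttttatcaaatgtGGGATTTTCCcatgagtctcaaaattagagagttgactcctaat
Ebi3: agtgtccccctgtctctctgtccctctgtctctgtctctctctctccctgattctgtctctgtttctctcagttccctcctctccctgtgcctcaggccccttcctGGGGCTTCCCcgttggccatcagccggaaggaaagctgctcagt
Il12b: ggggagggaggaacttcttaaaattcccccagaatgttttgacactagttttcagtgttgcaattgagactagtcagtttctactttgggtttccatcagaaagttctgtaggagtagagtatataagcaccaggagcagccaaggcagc

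The libraries held 20071921 to 30604447 counts. TMM factors, which correct library sizes for a few very abundant genes, were 1.21 to 1.32 in vehicle and 0.701 to 0.833 in LPS libraries. Without them the log2 fold changes of all tested genes shifted by a median of −0.68, and the calls over all genes moved from 4191 higher and 4686 lower to 1988 higher and 8457 lower. All 10 fixed microglial markers were detected, with a summed level of 4201 to 5481 CPM in vehicle and 1867 to 2049 CPM after LPS (CPM, counts relative to the library total after scaling with the TMM factors, as edgeR gives them). Of these markers 7 were called lower and 1 higher, Itgam, from a mean of 252 to 965 CPM. Among the lower ones, Cx3cr1 went from a mean of 987 to 6.43 CPM and Trem2 from 548 to 13.4 CPM. Of other cell types, the summed markers ran in vehicle and then LPS libraries from 20.5 to 47.6 and 41.4 to 124 CPM for astrocytes, 27.5 to 142 and 63.7 to 139 CPM for oligodendrocyte precursors, 197 to 1128 and 11.2 to 71.7 CPM for fibroblasts, and 31.2 to 73.9 and 163 to 254 CPM for endothelial cells. Most of the fibroblast sum was Fn1 in every library, at 197 to 1125 CPM in vehicle and 5.95 to 66.2 CPM after LPS. Of 7 fibroblast markers Fn1 was called lower and Dcn higher (16 counts in vehicle and 706 after LPS), and no other was called. Of 10 astrocyte markers 1 was called higher (Gja1) and 3 lower (Gfap, Aqp4 and Aldh1l1), and Gjb6 had 0 counts. Of 9 oligodendrocyte precursor markers 1 was called higher (Vcan) and 3 lower (Cspg4, Olig1 and Olig2). Vcan was at 5.51 to 21.8 CPM in vehicle and made up 37.1 to 104 CPM of the sum after LPS. Of 8 endothelial markers 3 were called higher (Pecam1, Cdh5 and Flt1), and Cldn5 had 0 counts. Egfl7 (64 counts in vehicle and 10 after LPS), Slco1a4 (6 and 0), and Tek and Esam (at most 3 counts in any library) were not tested. Over all tested genes 30.3% were called higher and 33.8% lower. T and NK cell markers had at most 2 counts in any library, with 0 counts for 5 of 7 genes. The neutrophil list was at most 0.874 CPM in vehicle and 572 to 1175 CPM after LPS, mostly S100a8, which was called higher. Camp of that list had 4 counts in vehicle and 73 after LPS, without overlap of the groups, and Mpo and S100a9 had 0. Its other genes, Ly6g, Cxcr2 and Elane, had at most 3 counts in any library. The part of such cells in the results was not tested. In these bulk samples fewer cells of a type and less RNA per cell cannot be told apart.

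After LPS the ligand genes Il6, Lif and Osm and the subunit genes Il12b, Il27 and Ebi3 rose, and the receptor genes Il6ra and Il6st fell, each at an edgeR adjusted p under 0.05. Of the 10 genes, 8 passed the filter on low counts, and of these 6 were called higher and 2 lower, while over all 13847 tested genes 30.3% were called higher and 33.8% lower, 64.1% in all. Il6, Il12b and Lif passed that filter through their LPS libraries alone, so that the count of higher genes and the median below were partly set by the filter. In all 8 the groups did not overlap, with 6 higher and 2 lower, against 28.8% and 31.4% of all tested genes. As a description, the median log2 fold change of the 8 was 4.24, and that over all tested genes was −0.11. The 2 genes that did not pass were Il12a and Il23a, the subunits that complete IL-12 and IL-23.

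**Figure D1:**
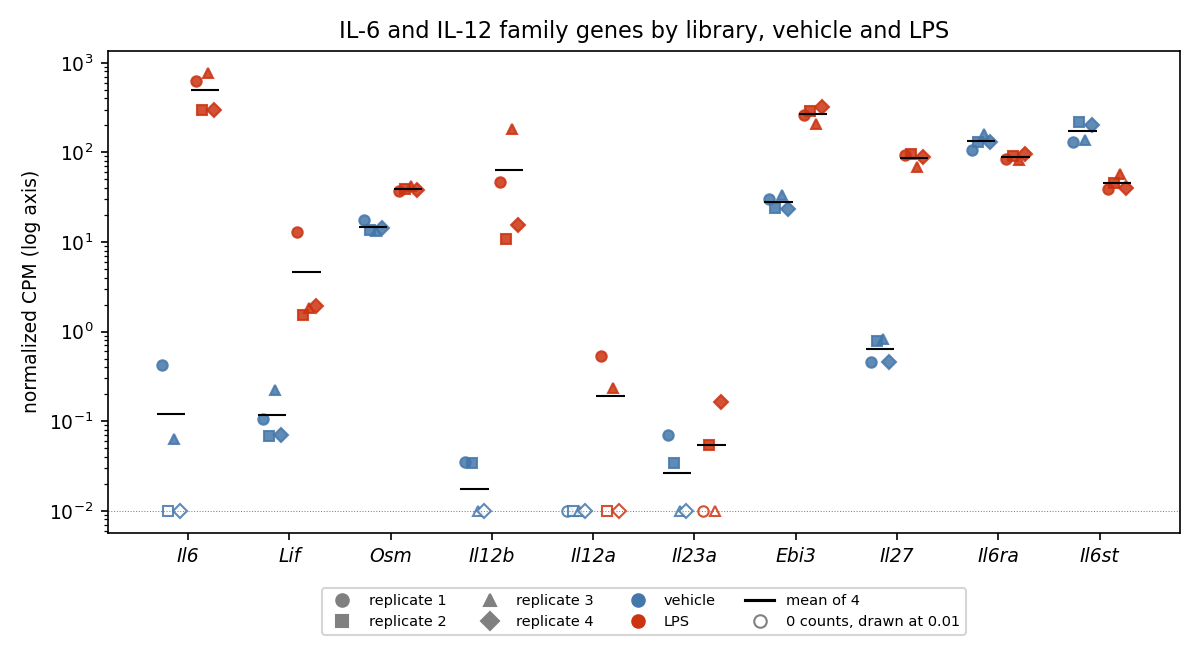
Normalized CPM (log axis) of the 10 genes in each library. Marker shapes give replicates 1 to 4, colours the groups, lines the mean of 4 libraries, and open markers libraries with 0 counts, drawn at 0.01. All LPS libraries lie above all vehicle libraries for Il6, Lif, Osm, Il12b, Ebi3 and Il27 and below them for Il6ra and Il6st.

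Il6 (ENSMUSG00000025746, chromosome 5 from 30013114 to 30019981) encodes the founding cytokine of its family, which drives acute phase and lymphocyte responses. In vehicle replicates 1 to 4 it had 12, 0, 2 and 0 counts, and in LPS replicates 1 to 4 it had 10560, 5510, 16633 and 5436. On the CPM scale this was 0.419, 0, 0.0634 and 0 in vehicle and 631, 300, 775 and 294 after LPS. The gene was near the limit of detection in vehicle libraries, and LPS replicates 1 and 3 lay above replicates 2 and 4 by more than 2-fold. The log2 fold change was 11.97 (with a standard error of 0.77, n = 4 per group, edgeR adjusted p = 1.50e-06). Its size rests on the few vehicle counts. It was 14.16 without vehicle replicate 1, which held 12 of the 14 vehicle counts.

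Lif (ENSMUSG00000034394, chromosome 11 from 4257557 to 4272514) encodes leukaemia inhibitory factor, a gp130 ligand with roles in glial differentiation. It had 3, 2, 7 and 2 counts in vehicle replicates 1 to 4 and 217, 28, 39 and 36 counts after LPS. The LPS levels were 12.98, 1.52, 1.82 and 1.95 CPM, so that replicate 1 stood far above the others. The gene rose by 5.20 on the log2 scale (with a standard error of 0.90, edgeR adjusted p = 7.01e-04) with all libraries and 3.85 (edgeR adjusted p = 1.04e-04) without LPS replicate 1. Without vehicle replicate 3, with 7 of the 14 vehicle counts, it was 5.79. In that LPS library the summed astrocyte markers were also the highest, at 124 CPM against at most 49.4 CPM in the other LPS libraries. Of these markers only Gja1 was called higher, and it reached 1640 counts there against 531 to 756 in the other LPS libraries.

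Osm (ENSMUSG00000058755, chromosome 11 from 4236420 to 4241026) lies next to Lif and encodes oncostatin M, a gp130 ligand made by myeloid cells. It was already expressed in vehicle libraries, at 17.5, 13.5, 13.1 and 14.5 CPM, and was at 36.6, 39.5, 42.1 and 37.95 CPM after LPS. Its spread was small, with a coefficient of variation of 6.08% among the LPS libraries against 48.4% for Il6 and 123% for Lif. Osm rose by a log2 fold change of 1.41 (with a standard error of 0.12, edgeR adjusted p = 6.62e-06), and it was 0.73 (edgeR adjusted p = 3.50e-04) without TMM factors. Thus the direction did not depend on the scaling, while the size did.

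Il12b (ENSMUSG00000004296, chromosome 11 from 44400063 to 44414033) encodes p40, the chain shared by IL-12 and IL-23. It had 1, 1, 0 and 0 counts in vehicle replicates 1 to 4 and 771, 197, 3863 and 286 counts after LPS. The LPS levels of 46.1, 10.7, 180 and 15.5 CPM were the most spread of the called genes, with 16.8-fold between the lowest and the highest library. LPS replicate 3 was the highest and replicate 1 the next, the order also seen for Il6. The summed counts gave a ratio of LPS over vehicle of 3999 (95% exact interval 1107 to 33034, counting error only), and edgeR called the gene higher (adjusted p = 1.18e-04, n = 4 per group). The fitted log2 fold change, which depends on the prior count, was 11.47 with all libraries and 10.09 without LPS replicate 3. In that library the summed dendritic cell markers were 18.4 CPM, against 5.62 to 7.40 CPM in the other LPS libraries and at most 3.44 CPM in vehicle. Of the 7 genes of that list, Xcr1 was called higher and made up 17.7 CPM of that sum, and Zbtb46 was called lower (269 to 9 counts in all). Ccr7 had 0 counts in vehicle and 5 to 14 in each LPS library, and was not tested. Cd209a had 0 counts and Flt3 at most 1 in any library. Clec9a went from 20 counts in vehicle to 4 after LPS and Siglech from 5 to 0, and neither was tested. The part of dendritic cells was not tested.

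Il12a (ENSMUSG00000027776, chromosome 3 from 68690644 to 68698547) encodes p35. It had 0 counts in every vehicle library, which allows up to 3 counts in each, and 9, 0, 5 and 0 counts in LPS replicates 1 to 4. The counts above 0 were in the same LPS replicates, 1 and 3, in which Il6 and Il12b were highest. It did not pass the filter. Without a filter its adjusted p was 0.029 with edgeR, and it was 0.0562 with DESeq2. Il23a (ENSMUSG00000025383, chromosome 10 from 128296139 to 128298752) encodes p19. It had 2, 1, 0 and 0 counts in vehicle and 0, 1, 0 and 3 counts after LPS, at or under the floor of 3 counts in every library, and a difference was not detectable at this depth.

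Il27 (ENSMUSG00000044701, chromosome 7 from 126589010 to 126594941) encodes p28, the chain specific to IL-27, a cytokine that can limit as well as promote T cell responses. It was at 0.454, 0.795, 0.824 and 0.461 CPM in vehicle and at 92.8, 96.0, 68.8 and 89.2 CPM after LPS. The LPS libraries were close to each other, and replicate 3 was the lowest. The log2 fold change was 7.08 (with a standard error of 0.22, edgeR adjusted p = 3.91e-08), a change of 135-fold. Ebi3 (ENSMUSG00000003206, chromosome 17 from 55952640 to 55957022), its partner, was at 30.4, 23.7, 33.2 and 23.2 CPM in vehicle and at 261, 289, 210 and 322 CPM after LPS. It rose from a basal level that was well above detection in all vehicle libraries. Its log2 fold change was 3.29 (with a standard error of 0.18, edgeR adjusted p = 6.20e-07), a change of 9.78-fold. Exons of Apobr on the opposite strand cover 10.1% of the exonic bases of Il27, and those of Gm16712 cover 23.4% of Ebi3, so part of these counts is uncertain if counting did not use strand.

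Il6ra (ENSMUSG00000027947, chromosome 3 from 89864059 to 89913196) was at 105, 131, 162 and 131 CPM in vehicle and at 84.9, 90.3, 82.5 and 95.4 CPM after LPS. The highest LPS library lay below the lowest vehicle library. The log2 fold change was −0.58 (with a standard error of 0.13, edgeR adjusted p = 0.00349), to 0.667 of the vehicle level. Il6st (ENSMUSG00000021756, chromosome 13 from 112464070 to 112510086) was at 129, 219, 138 and 202 CPM in vehicle and at 39.5, 45.2, 57.3 and 40.5 CPM after LPS. It fell in all libraries to well under the vehicle range. The log2 fold change was −1.92 (with a standard error of 0.20, edgeR adjusted p = 3.13e-05), to 0.265 of the vehicle level. Without TMM factors the log2 fold changes of Il6ra and Il6st were −1.25 and −2.61. That setting shifted those of all tested genes by a median of −0.68, so it is no test of a fall. DESeq2, with a median shift of 0.053 from the main fit, gave −0.53 for Il6ra and −1.86 for Il6st. A setting with a larger upward shift was not run.

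**Figure D2:**
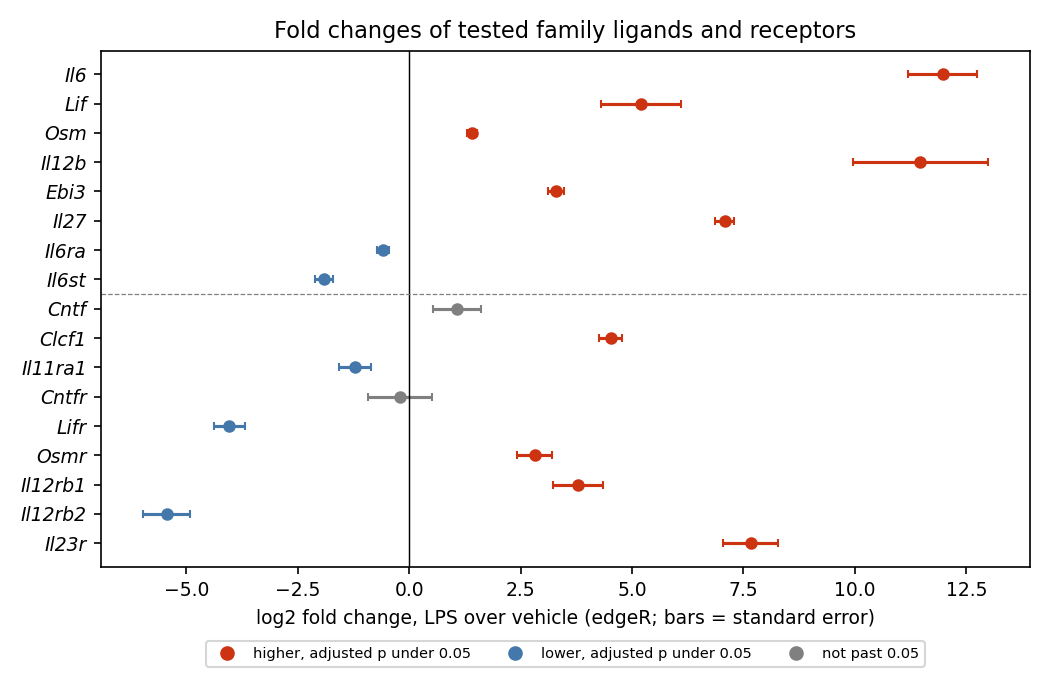
Log2 fold change of LPS over vehicle with its standard error (edgeR) for the 8 tested genes of the set (above the dashed line) and the 9 tested ligands and receptors of the same families outside it. Of the set, the 6 cytokine genes lie right of 0 and the 2 receptor genes left of it, and Il12b, Il23r and Il12rb2 have at most 3 counts in each library of a group, so that their fitted values depend on the prior count.

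The order of the genes was compared on a scale per length, as CPM per kilobase of exon (RPKM). In vehicle libraries Ebi3 was the highest at 23.9 ± 4.29 RPKM (SD, n = 4), followed by Il6st at 15.5 ± 4.05, Il6ra at 15.3 ± 2.68 and Osm at 6.45 ± 0.865. The ranges of Il6st and Il6ra overlapped, while Ebi3 from 20.1 lay above Il6st up to 19.8, and Il6ra lay above Osm. The gap between Ebi3 and Il6st depends on the length used. Il6st has 11099 exonic bases but a longest transcript of 8678, and Ebi3 has 1154 by either measure. Per kilobase of longest transcript their vehicle ranges overlap. The level of Il27 was 0.620 ± 0.199 RPKM, and the other genes were at most 0.173 RPKM in any vehicle library. After LPS Ebi3 was at 234 ± 41.2 RPKM, Il6 at 206 ± 99.6, Il27 at 84.9 ± 12.02 and Il12b at 32.1 ± 40.4. Lower levels were those of Osm at 17.2 ± 1.05, Il6ra at 10.2 ± 0.664, Il6st at 4.11 ± 0.738, Lif at 1.05 ± 1.29 and Il12a at 0.113 ± 0.150. The ranges of the neighbours Ebi3 and Il6, Il27 and Il12b, and Il12b and Osm overlapped in the LPS libraries, and those of the other neighbours from Il6 to Il12a did not. Without LPS replicate 3 the level of Il12b was 12.25 ± 9.76 RPKM (SD, n = 3), below that of Osm at 16.7 ± 0.629 in the same libraries.

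The cytokine chains that pair in one protein were then compared within each library. Among 6 pairs defined, both genes exceeded 3 counts in some library of each group for 2 pairs, and only these were tested. In vehicle libraries the ratio of Ebi3 to Il27 in counts per kilobase was 57.0, 25.8, 35.0 and 42.9, and after LPS it was 2.49, 2.66, 2.70 and 3.19. Thus Ebi3 mRNA exceeded its partner in every library, and the excess was smaller in all LPS libraries than in any vehicle library. The log2 ratio was 5.27 ± 0.48 in vehicle and 1.46 ± 0.15 after LPS (SD, n = 4), a difference of −3.81 (exact two-sided permutation p = 0.0286, which is the lowest possible with 4 against 4 libraries, and 0.0286 after adjustment over the 2 pairs). The ratio of Il6st to Il6ra was 0.959, 1.31, 0.665 and 1.20 in vehicle and 0.362, 0.390, 0.541 and 0.331 after LPS. By this length the signalling chain was above the ligand-binding chain in 2 of 4 vehicle libraries and was the scarcer mRNA in all LPS libraries. Il6st has 11099 exonic bases but a longest transcript of 8678, against 8642 and 8639 for Il6ra. With the transcript lengths every ratio would be higher, so its level depends on the length used. The difference between the groups does not. The log2 ratio was −0.0012 ± 0.43 in vehicle and −1.33 ± 0.31 after LPS (SD, n = 4), a difference of −1.33 (exact two-sided permutation p = 0.0286, adjusted 0.0286). With same-numbered libraries paired, both pairs gave an exact sign-flip p of 0.125, the smallest that 4 pairs allow.

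For the pairs with Il12a or Il23a, only the LPS level is given, from the counts summed over the 4 LPS libraries, with 95% exact intervals that cover counting error only. Per kilobase, Il12b exceeded Il12a, its partner in IL-12, by 316 (188 to 579), from 5117 against 14 counts. It exceeded Il23a, its partner in IL-23, by 1461 (570 to 5365), from 5117 against 4 counts. LPS replicate 3 held 3863 of the 5117 counts of Il12b, and without it the ratios were 120 and 358. Without LPS replicate 1, which held 9 of the 14 counts of Il12a, the ratio of Il12b to Il12a was 752. Ebi3 exceeded Il12a, its partner in IL-35, by 2120 (1263 to 3878). The ratio of Il23a to Il12a was 0.216 (0.0518 to 0.689), and it was 0.0541 without LPS replicate 4, 0.336 without LPS replicate 3 and 0.606 without LPS replicate 1.

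**Figure D3:**
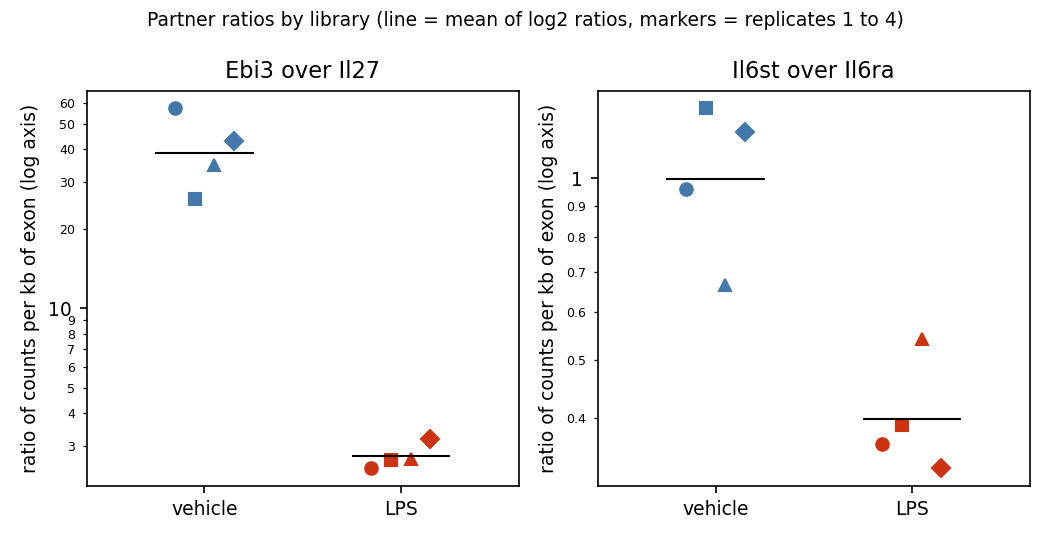
Ratio of counts per kilobase of exon (log axis) of Ebi3 to Il27 and of Il6st to Il6ra in each library. Markers are replicates 1 to 4 and lines the mean of the log2 ratios. All 4 LPS libraries lie below all 4 vehicle libraries in both panels, at 2.49 to 3.19 against 25.8 to 57.0 and at 0.331 to 0.541 against 0.665 to 1.31.

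Of the 7 IL-6 family ligands outside the set, Clcf1 rose, and the others were near or under detection or not called. Of the 2 tested, 1 was called higher and none lower, against 30.3% and 33.8% of all tested genes. Clcf1 and Cntf reached the cutoff of the filter in all 4 LPS libraries but in only 1 and 3 vehicle libraries, so this count was partly set by the filter. Clcf1, which encodes a ligand of the CNTF receptor, went from 0.334 ± 0.0816 to 7.75 ± 1.28 CPM (SD, n = 4, log2 fold change 4.52, with a standard error of 0.25, edgeR adjusted p = 6.20e-07). Cntf was at 0.519 and 1.10 CPM (edgeR adjusted p = 0.103), but 78.9% of its exonic bases are shared with Zfp91 on the same strand. The other 5 did not pass the filter and were not tested, among them Il11, Ctf1 and Ctf2 with at most 6 counts in any library and Il31 with 0.

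The 9 other receptor chains moved in both directions, with 3 higher, 3 lower and 1 not called among the 7 tested, against 30.3% higher and 33.8% lower of all tested genes. Osmr, Il12rb1 and Il23r passed the filter through their LPS libraries alone and Il12rb2 through its vehicle libraries alone, so these counts were partly set by the filter. Il23r, which encodes the chain specific to IL-23, had 2, 0, 1 and 0 counts in vehicle and 147, 67, 171 and 85 after LPS, a ratio of summed counts of 245 (95% exact interval 83.3 to 1192, counting error only, edgeR adjusted p = 5.51e-06). Its fitted log2 fold change, which depends on the prior count, was 7.67 and became 8.59 without vehicle replicate 1. Il12rb1, the chain shared by the IL-12 and IL-23 receptors, rose from 0.198 ± 0.192 to 2.84 ± 0.777 CPM (log2 fold change 3.79, edgeR adjusted p = 2.37e-04). Vehicle replicate 3 held 15 of its 24 vehicle counts, and without it the log2 fold change was 4.75. Il12rb2, specific to the IL-12 receptor, fell from 50, 67, 83 and 97 counts in vehicle to 2, 0, 1 and 1 after LPS, a ratio of 0.0211 (95% exact interval 0.0057 to 0.0545, edgeR adjusted p = 1.75e-05). Thus the chain specific to the IL-23 receptor rose while that of the IL-12 receptor fell. Exons of Serbp1 on the opposite strand cover 40.04% of the exonic bases of Il12rb2.

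Of the chains that join gp130, Lifr, which binds LIF, fell from 25.7 ± 8.26 to 1.55 ± 0.622 CPM (log2 fold change −4.03, with a standard error of 0.35, edgeR adjusted p = 7.92e-06). Osmr, which binds oncostatin M, rose from 0.307 ± 0.0741 to 2.19 ± 1.01 CPM (log2 fold change 2.82, with a standard error of 0.39, edgeR adjusted p = 1.67e-04). Il11ra1 was lower (log2 fold change −1.22, edgeR adjusted p = 0.0136), but not past the threshold without vehicle replicate 1 (adjusted p = 0.0568). Cntfr was at 0.826 and 0.725 CPM (edgeR adjusted p = 0.815). Il27ra had 7 to 14 counts in vehicle and 0 to 6 after LPS and was not tested, and Il31ra had at most 4 counts.

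Of 7 genes of the JAK-STAT list, which relays the gp130 signal to the nucleus, 6 were tested and all 6 were called higher, with a median log2 fold change of 1.08, against 30.3% of all tested genes called higher. Without TMM factors the list had 3 higher and 1 lower, Tyk2 at −0.31 (edgeR adjusted p = 0.0288). Stat4 was not tested. Jak2 rose from 67.3 ± 6.60 to 773 ± 103 CPM (log2 fold change 3.52) and Stat3, the main transducer of IL-6, from 184 ± 19.1 to 851 ± 53.5 (2.21). Of 7 feedback inhibitors 4 were called higher and none lower, against 30.3% and 33.8% of all tested genes, and 3 were higher and 2 lower without TMM factors. Socs3, which binds gp130 and stops its signal, was at 12.5 ± 5.43 CPM in vehicle and 1747 ± 175 after LPS (log2 fold change 7.13, with a standard error of 0.36, edgeR adjusted p = 4.01e-07). Socs1 rose by 3.79 and Ptpn2 by 1.58 on the log2 scale.

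Of 11 target genes of gp130 and STAT3 signalling, 6 were called higher and 2 lower, with a median log2 fold change of 1.30, against 30.3% and 33.8% of all tested genes. Without TMM factors 5 were higher and 3 lower, and with a replicate block 5 were higher and 2 lower. Timp1 reached the cutoff of the filter on low counts in 4 LPS and 3 vehicle libraries. Timp1, an inhibitor of matrix proteases, went from 0.433 ± 0.170 to 107 ± 38.1 CPM (log2 fold change 7.93). Socs3 is also on this list, and Pim1, a kinase that favours survival, rose by 3.71. Fos and Myc, both growth response factors, fell by 1.91 and by 1.11 on the log2 scale. Myc did not pass the threshold without vehicle replicate 4 (edgeR adjusted p = 0.0578). These genes also respond to signals other than gp130, and which signal moved them was not tested.

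Of 13 transcription regulators of Il6 and Il12b, 9 were called higher and 1 lower, with a median log2 fold change of 1.07, against 30.3% and 33.8% of all tested genes, and without TMM factors 6 were higher and 2 lower. The largest rises were those of Nfkbiz, a nuclear IκB protein needed for Il6 transcription (log2 fold change 3.604, with a standard error of 0.15), Atf3, a repressor of Il6 and Il12b (2.35), and Cebpb, an activator of Il6 (2.22). Batf3, a factor of dendritic cell development, was called lower (−1.27, edgeR adjusted p = 0.0387). Batf3 reached the cutoff of the filter on low counts in all 4 vehicle libraries but in only 1 LPS library. With a replicate block its adjusted p was 0.0684, and with any one of 7 of the 8 libraries left out, all but LPS replicate 4, it was over 0.05.

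Of 8 regulators of cytokine mRNA decay, 3 were called higher and 1 lower, with a median log2 fold change of 0.21, against 30.3% and 33.8% of all tested genes. Some of these factors bind AU-rich elements and others stem-loops. Zc3h12a, the RNase that degrades Il6 and Il12b mRNA, rose from 21.7 ± 4.297 to 291 ± 60.5 CPM (log2 fold change 3.74). Zfp36, which binds AU-rich elements and promotes decay, rose by 2.69, and Arid5a, which stabilizes Il6 mRNA, by 2.59. Khsrp, a decay factor, fell by 0.53 on the log2 scale. Without TMM factors this list had 3 higher and 5 lower. Of 4 genes of receptor shedding, which releases soluble IL-6Rα, 1 was called higher and 3 lower, against 30.3% and 33.8% of all tested genes. The proteases Adam10 and Adam17 fell by 1.00 and by 0.58, Rhbdf1 fell by 2.07, and Rhbdf2, a partner of Adam17 in myeloid cells, rose by 2.53 on the log2 scale. Rhbdf1 reached the cutoff of the filter on low counts in 4 vehicle and 3 LPS libraries.

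**Figure D4:**
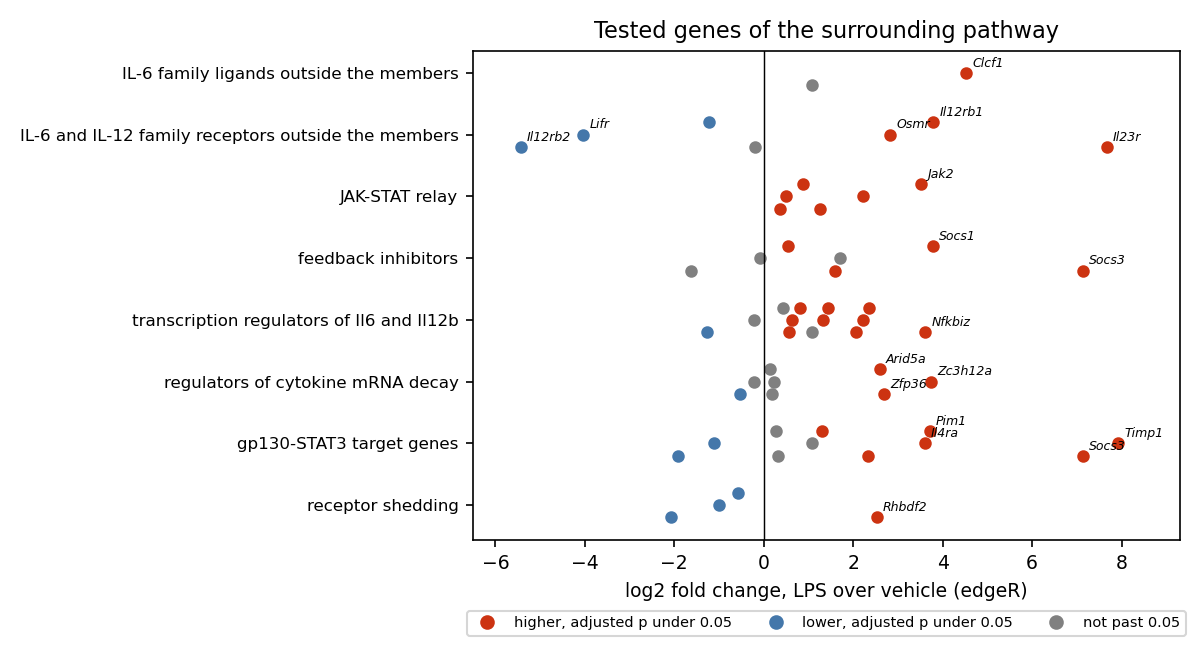
Log2 fold change of LPS over vehicle (edgeR) of each tested gene of the 8 pathway lists, with genes beyond 2.5 named. Red genes were called higher, blue genes lower and grey genes not called at an adjusted p of 0.05, and the highest points are Timp1, Il23r and Socs3.

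The genes whose pattern over the 8 libraries was most like that of Il6 on the log2(CPM + 0.5) scale, among 11089 genes compared, were Clcf1 (Pearson r = 0.9996), Ak4 (0.9995) and Pdpn (0.9993). For Il12b they were Rnf14 (0.998), Ecpas (0.998) and Csnk1a1 (0.996). The difference between the groups alone gives high values, and 1508 genes for Il6 and 859 for Il12b had r over 0.95. All of these points share the same 8 libraries.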

How the data were processed

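Total RNA of 8 samples was sequenced in single-end reads of 50 bases. Separate cultures are not stated beyond the label of biological replicate, so p-values measure the spread between these samples. The authors used HTSeqGenie to filter reads and to count those that GSNAP placed uniquely on GRCm38, and deposited raw counts per gene without normalization. Sources differ on the library kit (stranded by the labels) and on the sequencer. The annotation release and the use of strand are not given in the sources used here. Symbols, positions and exon lengths came from GENCODE vM21 (52403 of 52636 identifiers matched, the other 233 held 0.0155% of counts).

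Counts were tested with edgeR 4.0.16 (TMM, quasi-likelihood test, two-sided, low counts removed by filterByExpr at min.count 10 and min.total.count 15, Benjamini-Hochberg over 13847 genes, threshold 0.05) in R 4.3.3. DESeq2 1.42.0, other scalings, no filter, an adjusted p of 0.01, a replicate block and leaving out libraries were alternatives. Standard errors are the log2 fold change over the root of F. Log2 ratios used counts plus 0.5. Python 3.11.15, numpy 2.4.6, pandas 2.3.3, scipy 1.17.1 and matplotlib 3.10.9 served the rest, and the tests were tested on simulated data. The members and lists were chosen with earlier results of these data known. Named genes are the 10 members, the other family ligands and receptors, in each other list up to 3 higher and 3 lower genes with the largest changes, and the 3 genes most like Il6 and Il12b. Some genes of the lists are not reported here. Depth, from 20071921 counts up, sets the floor of 3 counts, 0.0980 to 0.149 CPM before TMM scaling.

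Libraries with the same number deviated together from their group means over 8382 genes (r = 0.363 for replicate 1, 0.179 for replicate 2, 0.177 for replicate 3 and 0.110 for replicate 4). Vehicle replicate 2 with LPS replicate 4 gave 0.141 and vehicle replicate 4 with LPS replicate 2 gave 0.122, so these numbers were not told apart by it. The main tests did not pair libraries. Every same-number r is over 0.1, so a replicate block that pairs libraries by the numbers of their labels was run as an alternative. Proteins were not analysed here.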

Additional observations from a re-analysis of the deposited data

Results flagged for a closer look

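In 6 of 41 groups of 4 libraries, over the family genes, 1 library lay far from the other 3 of its group by Dixon's criterion for 4 values. The criterion flags about 1 in 20 groups of normally distributed values by chance. A group with 1 library above 0 and 3 at 0, as for Il11 and Il31ra in vehicle, is always flagged, so that rate does not hold here. Lif in LPS replicate 1 was at 12.98 CPM against 1.52 to 1.95 in the others. Il6 in vehicle replicate 1 was at 0.419 CPM against at most 0.0634. Clcf1 in vehicle replicate 1 was at 0.454 CPM against 0.284 to 0.311. Il11 in vehicle replicate 1 was at 0.175 CPM against 0, and in LPS replicate 1 at 0.359 CPM against at most 0.0541. Il31ra in vehicle replicate 4 was at 0.142 CPM against 0 in the others. Of these 6, 5 were libraries numbered 1. The values of Il11 and Il31ra rest on at most 6 counts.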

How the results depend on the processing

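The 6 higher and 2 lower members kept these counts under the scaling alternatives, the replicate block, an adjusted p of 0.01 and each omission of a library. DESeq2 called 5 higher, with no p for Lif, and edgeR without a filter 7, with Il12a. Over the pathway lists 32 genes were higher and 10 lower. Without TMM factors, chosen as an alternative after seeing the data, 24 were higher and 19 lower, and some log2 fold changes reversed. Tyk2, Ptpn11, Ptpn6, Rela and Spi1, called higher in the main fit (0.36 to 0.64), became −0.31, −0.19, −0.13, −0.093 and −0.012. The calls of these genes thus depended on the scaling. Of genes not called in the main fit, Irf8 became −0.23, Rc3h2 −0.47, Elavl1 −0.53, Hnrnpd −0.49, Mcl1 −0.41 and Icam1 −0.34. Upper quartile scaling gave −0.012 for Elavl1. Cntfr changed sign without vehicle replicates 1 or 2 or LPS replicates 2 or 3 (0.021, 0.094, 0.048 and 0.14), over a range of −0.55 to 0.14.

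The replicate block gave the same differences of the partner ratios, −3.81 for Ebi3 over Il27 and −1.33 for Il6st over Il6ra, at p = 0.125 by exact sign flips. It lost the calls of Batf3 and Junb (edgeR adjusted p = 0.0684 and 0.0804), made that of Cish (0.0139), and changed no other call. Junb also lost its call without 7 of the 8 single libraries, all but LPS replicate 3. Without both libraries numbered 3, chosen after seeing the data, the differences were −3.85 and −1.67 (exact permutation p = 0.1, the smallest possible). Leaving out single libraries gave −4.0 to −3.62 and −1.52 to −1.20, and the second missed the threshold (exact permutation p = 0.0571) without LPS replicates 1, 2 or 4. For the LPS ratios the omissions gave 120 to 752 for Il12b over Il12a, 358 to 1873 for Il12b over Il23a, 1492 to 4647 for Ebi3 over Il12a and 0.0541 to 0.606 for Il23a over Il12a. Of 959 single-gene values under alternatives, 893 kept their direction and call. Depth limits Il12a and Il23a.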
